A study of Mus musculus with 12 samples.

Results

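MHC class II molecules and their invariant chain Cd74 were followed as 7 genes, Cd74, H2-Aa, H2-Ab1, H2-Eb1, H2-DMa, H2-DMb1 and Ciita, out of 52636 genes measured in hippocampal RNA. The genes were taken by their symbols, and each symbol was found once in the table of each sex. The genes were chosen by their measured difference between low and high extinction in the male libraries, so the male differences are given as a description and were not tested here. The female differences were tested, although results of the female libraries were also known when the genes were chosen.

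Bulk polyadenylated RNA was sequenced from the hippocampus of 12 mice of the C57BL6/J strain, wild-type and 18 weeks old, 1 mouse per library. Low-extinction males, high-extinction males, low-extinction females and high-extinction females contributed 3 mice each, and no group carried a transgene, a mutation or a drug according to the labels. In fear extinction an animal gradually stops reacting to a once threatening signal that no longer has consequences, and the labels sort the mice by how far this went. All differences are low minus high extinction. Levels are given as TPM (transcripts scaled to a fixed sum), an abundance per unit of transcript length with an equal sum for all libraries.

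MHC class II molecules are pairs of an alpha and a beta chain that carry peptides from engulfed proteins to the cell surface, where CD4 T cells read them. Cd74 binds new class II pairs, blocks their groove and guides them to endosomes, and the H2-DM pair then trades the remnant of Cd74 for a peptide. In the brain, class II is known from macrophages at the borders, from dendritic cells and B cells, and from activated microglia. Resting microglia and neurons carry little of it. Ciita is the coactivator without which the class II promoters are nearly silent. It binds no DNA itself and docks on proteins that sit on the X and Y boxes of these promoters.

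RefSeq promoter windows on GRCm38.p6 were at hand for H2-Aa, H2-Eb1, H2-DMa and H2-DMb1. The windows of H2-Aa and H2-Eb1 are shown because the genes are an alpha and a beta chain with a like pattern and the docking boxes of the class II activator can be read in them. Each holds the 250 bases before the RefSeq start site, 5′ to 3′ on the gene's strand, at chr17:34287824-34288073 (minus strand) for H2-Aa and chr17:34305617-34305866 (plus strand) for H2-Eb1. Capitals mark first the X box, searched as CTNGNAAC, and then the Y box, searched as TGATTGG.
H2-Aa: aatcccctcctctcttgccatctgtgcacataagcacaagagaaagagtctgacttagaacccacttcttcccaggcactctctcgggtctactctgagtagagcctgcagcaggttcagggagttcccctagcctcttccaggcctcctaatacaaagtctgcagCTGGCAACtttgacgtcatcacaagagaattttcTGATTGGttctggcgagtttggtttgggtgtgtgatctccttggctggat
H2-Eb1: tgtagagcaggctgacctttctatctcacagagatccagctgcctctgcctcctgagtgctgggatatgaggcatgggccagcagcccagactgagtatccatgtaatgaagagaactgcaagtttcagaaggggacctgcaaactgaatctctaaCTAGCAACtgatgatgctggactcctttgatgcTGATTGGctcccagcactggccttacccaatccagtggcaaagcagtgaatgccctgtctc
The letters searched were written down after these windows had been read, so the matches describe the windows and do not test them. The X box of H2-Aa is CTGGCAAC at positions -84 to -77 from the start and its Y box begins 26 bases further on. In H2-Eb1 the X box is CTAGCAAC at positions -94 to -87, with 25 bases before the Y box. H2-DMb1, the beta chain of the peptide exchanger, has the X box CTAGTAAC at positions -97 to -90 and 26 bases before its Y box. Its window is not printed, as GENCODE M21 places the start of H2-DMb1 further upstream. Both windows of H2-DMa held 0 matches to either box, which says only that these letters are not there. The windows end at positions 34122831 and 34125517. The stretches before the coding starts that GENCODE M21 places at 34135628 and 34135654 were not searched. Searched on both strands, the X box was found in 10.9% and the Y box in 7.23% of 32851 RefSeq windows of the same length. An X box followed by a Y box after 15 to 30 bases on the gene's strand was found in 11 windows (0.0335%), of 9 genes. These 9 genes are H2-Aa, H2-Eb1, H2-DMb1, H2-Ob, BC051142, 1700048F04Rik, Epha7, Mark3 and Mns1.

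Of the 7 genes, 5 lie in the class II region of chromosome 17. In the GENCODE M21 annotation of GRCm38, H2-DMa (ENSMUSG00000037649.9) spans chr17:34119541-34139101 on the plus strand and H2-DMb1 (ENSMUSG00000079547.3) spans chr17:34153072-34160230 on the plus strand. H2-Ab1 (ENSMUSG00000073421.5) spans chr17:34257689-34269419 on the plus strand. H2-Aa (ENSMUSG00000036594.14) spans chr17:34282744-34287823 on the minus strand. H2-Eb1 (ENSMUSG00000060586.10) spans chr17:34305867-34316674 on the plus strand. Cd74 (ENSMUSG00000024610.14) lies elsewhere, at chr18:60803848-60812652 on the plus strand, and Ciita (ENSMUSG00000022504.9) at chr16:10480059-10528418 on the plus strand. The sources used here do not say if counting was by strand, so reads in stretches shared with a gene on the opposite strand cannot be told apart. H2-DMa shares its first part, up to position 34122634, with Brd2, which reached 93.6 TPM, and its coding transcripts start beyond that point. Ciita shares its last part, from position 10502531, with Dexi, which reached 41.8 TPM.

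TPM keeps no depth, so reads per library are unknown. The authors' deposited tables hold mean normalized counts that add up to 42.6 M for males and 43.4 M for females. Each library had 18170 to 19062 genes at 1 TPM or more. The hippocampal neuron markers Prox1, Wfs1, Fibcd1, Mpped1, Nrgn, Camk2a, Slc17a7, Neurod6, Snap25 and Rbfox3 were all above a mean of 1 TPM, and they summed to 5175 to 6534 TPM in every library. The share of TPM from ribosomal RNA-derived transcripts was smallest in the third low-extinction female (7.35%) and largest in the first high-extinction male (21.7%). Choroid plexus markers, 15 genes led by Ttr, summed to 28.6 to 3582 TPM in a library, so the libraries held very unequal amounts of that tissue's transcripts. Ranges by group are given with the other cell types. Throughout, fewer cells of a type and less RNA per cell cannot be told apart in bulk tissue.

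The class II chains and Cd74 were scarce transcripts. In the authors' deposited tables the 7 genes had mean normalized counts of 33.5 to 399 in males and 36.8 to 357 in females. On the TPM scale H2-DMa was the most abundant of the 7 in 12 of 12 libraries, and Ciita was the least abundant in 9 of 12. Cd74 was the most abundant of the 4 genes Cd74, H2-Aa, H2-Ab1 and H2-Eb1 in 12 of 12 libraries. H2-Aa, H2-Ab1 and H2-Eb1 exchanged places from library to library. The ratio of H2-Aa to H2-Ab1, the alpha and beta chains of I-A, ran from 0.434 to 3.33 with a median of 1.12. The ratio of Cd74 to H2-Aa ran from 1.03 to 4.76 with a median of 2.26. H2-DMa exceeded its partner H2-DMb1 by 5.48-fold to 17.3-fold with a median of 8.73-fold.

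**Figure D1:**
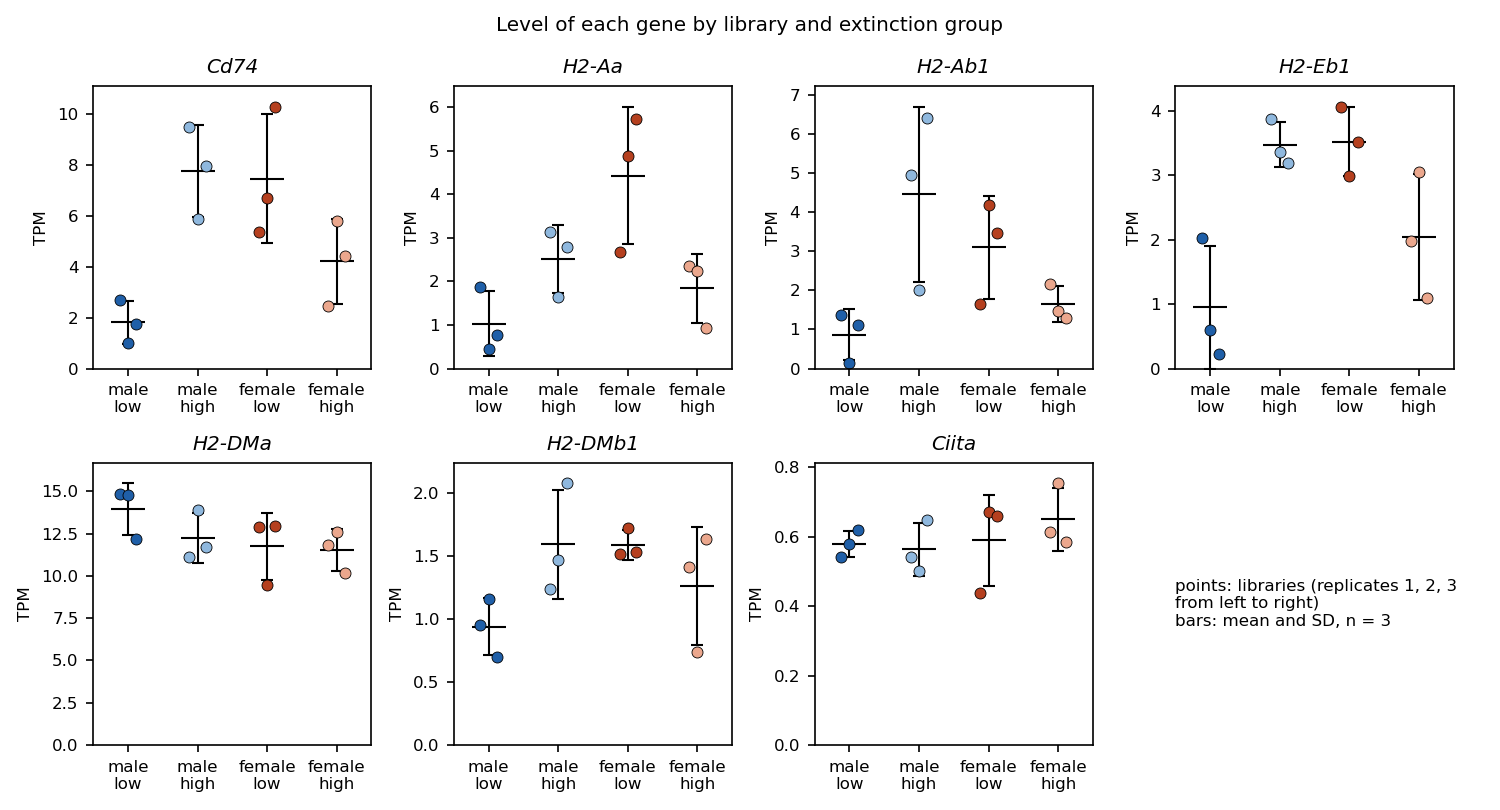
TPM of the 7 genes in each library, in panels by gene with an axis from 0. Points are the 12 libraries, and bars are the mean and SD of 3 libraries per group. In males the 3 low-extinction points lie below the 3 high-extinction points for Cd74, H2-Ab1, H2-Eb1 and H2-DMb1. In females the 3 low-extinction points lie above the 3 high-extinction points for H2-Aa.

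Cd74, the invariant chain, was lower at low extinction in males. It stood at 2.70, 0.997 and 1.77 TPM in low-extinction males, against 9.49, 5.88 and 7.96 TPM in high-extinction males. The 2 groups of males did not overlap, and replicate 1 was the highest library in each. In the authors' deposited table the male difference was -1.95 on the log2 scale (SE 0.30), a 3.87-fold lower level at low extinction. In low-extinction females Cd74 stood at 5.38, 6.70 and 10.3 TPM, against 2.44, 5.78 and 4.41 TPM in high-extinction females. The female groups overlapped, because replicate 1 of the low-extinction females lay below replicate 2 of the high-extinction females. Means were 1.82 ± 0.851 TPM in low-extinction males and 7.77 ± 1.81 TPM in high-extinction males, and 7.45 ± 2.53 TPM in low-extinction females and 4.21 ± 1.68 TPM in high-extinction females (SD, n = 3 each). In females the limma difference was 0.71 on log2(TPM + 1), with a 95% interval from 0.00 to 1.42 and an adjusted p = 0.563, and did not pass the threshold of 0.05. The authors' deposited table gave females a 1.66-fold higher level at low extinction (log2 0.73, SE 0.27, DESeq2 adjusted p = 0.245).

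H2-Aa encodes the alpha chain of I-A, which is the class II molecule that C57BL/6 mice display. It stood at 1.87, 0.441 and 0.777 TPM in low-extinction males, against 3.12, 1.64 and 2.78 TPM in high-extinction males. The male groups overlapped through replicate 1 of the low-extinction males. The authors' deposited table gave a male log2 difference of -1.28 (SE 0.46). In low-extinction females H2-Aa stood at 2.67, 4.89 and 5.72 TPM, against 2.36, 2.24 and 0.927 TPM in high-extinction females. All 3 low-extinction females lay above all 3 high-extinction females. Among all genes at a mean of at least 1 TPM in females, 14.3% showed that same separation, and among the 6 class II genes tested it was this 1 gene, a share near that of all genes. The limma difference in females was 0.93 on log2(TPM + 1), with a 95% interval from 0.22 to 1.64 and an adjusted p = 0.540. The authors' deposited table gave a 2.31-fold higher level at low extinction in females (log2 1.21, SE 0.36, DESeq2 adjusted p = 0.0711), which missed the threshold of 0.05.

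H2-Ab1, the beta chain that pairs with H2-Aa, had the lowest single value of the 4 genes. It stood at 1.36, 0.133 and 1.11 TPM in low-extinction males, against 4.95, 2.01 and 6.42 TPM in high-extinction males. The male groups did not overlap. The authors' deposited table gave a male log2 difference of -2.18 (SE 0.49), a 4.53-fold lower level at low extinction. In low-extinction females H2-Ab1 stood at 1.64, 4.20 and 3.48 TPM, against 2.18, 1.47 and 1.3 TPM in high-extinction females. These groups overlapped at a single library, replicate 1 of the low-extinction females, which lay below replicate 1 of the high-extinction females. The limma difference in females was 0.59 on log2(TPM + 1), with a 95% interval from -0.05 to 1.24 and an adjusted p = 0.583. The authors' deposited table gave a 1.76-fold higher level at low extinction in females (log2 0.82, SE 0.37, unadjusted DESeq2 p = 0.0278) and no adjusted p.

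H2-Eb1 encodes the beta chain of I-E. C57BL/6 mice display no I-E, since their alpha chain gene for it is defective, and that gene, H2-Ea-ps, was listed at 0 TPM in all 12 libraries. H2-Eb1 was nevertheless measured at levels like those of the I-A chains. It stood at 2.03, 0.595 and 0.223 TPM in low-extinction males, against 3.88, 3.37 and 3.19 TPM in high-extinction males. The male groups did not overlap, and the high-extinction males spread little (3.48 ± 0.356 TPM, SD, n = 3). The authors' deposited table gave a male log2 difference of -1.64 (SE 0.42). In low-extinction females H2-Eb1 stood at 4.06, 2.99 and 3.52 TPM, against 1.99, 3.05 and 1.09 TPM in high-extinction females. The female groups overlapped by a small margin, 2.99 TPM in replicate 2 at low extinction against 3.05 TPM in replicate 2 at high extinction. The limma difference in females was 0.62 on log2(TPM + 1), with a 95% interval from 0.04 to 1.20 and an adjusted p = 0.559. The authors' deposited table gave a 1.67-fold higher level at low extinction in females (log2 0.74, SE 0.34, DESeq2 adjusted p = 0.433).

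The chains of the peptide exchanger had unlike patterns. H2-DMb1, the beta chain, stood at 0.956, 1.16 and 0.703 TPM in low-extinction males, against 1.24, 1.47 and 2.08 TPM in high-extinction males, with no overlap. The authors' deposited table gave a male log2 difference of -0.87 (SE 0.42). In low-extinction females H2-DMb1 stood at 1.52, 1.73 and 1.53 TPM, against 1.41, 0.735 and 1.64 TPM in high-extinction females. The female groups overlapped, with a limma difference of 0.22 on log2(TPM + 1), a 95% interval from -0.22 to 0.66 and an adjusted p = 0.735. H2-DMa, the alpha chain, stood at 14.9, 14.8 and 12.2 TPM in low-extinction males, against 11.1, 13.9 and 11.7 TPM in high-extinction males. In low-extinction females H2-DMa stood at 12.9, 9.47 and 12.9 TPM, against 11.8, 12.6 and 10.2 TPM in high-extinction females. H2-DMa thus overlapped between low and high extinction in both sexes, and its libraries stayed within a narrow band. The authors' deposited tables gave H2-DMa a log2 difference of 0.08 (SE 0.14) in males and 0.03 (SE 0.15) in females. The limma interval for H2-DMa in females ran from -0.31 to 0.35 on log2(TPM + 1) (adjusted p = 0.978). Its annotation holds 8 transcripts, of which the coding ones start at positions 34122832, 34135628 and 34135654 of chromosome 17, and which of them carried the reads was not analysed here.

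Ciita, the coactivator of the class II promoters, stayed below 1 TPM in every library and was therefore not tested in the main limma fit. It stood at 0.541, 0.578 and 0.618 TPM in low-extinction males, against 0.543, 0.5002 and 0.649 TPM in high-extinction males. In low-extinction females Ciita stood at 0.439, 0.670 and 0.658 TPM, against 0.612, 0.753 and 0.583 TPM in high-extinction females. The groups overlapped in both sexes. The authors' deposited tables gave Ciita a log2 difference of 0.04 (SE 0.24) in males and -0.19 (SE 0.23, DESeq2 adjusted p = 0.879) in females. As counting by strand is unknown, the values of Ciita may include reads of Dexi. The part of Ciita in the values of the other class II genes was not tested.

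**Figure D2:**
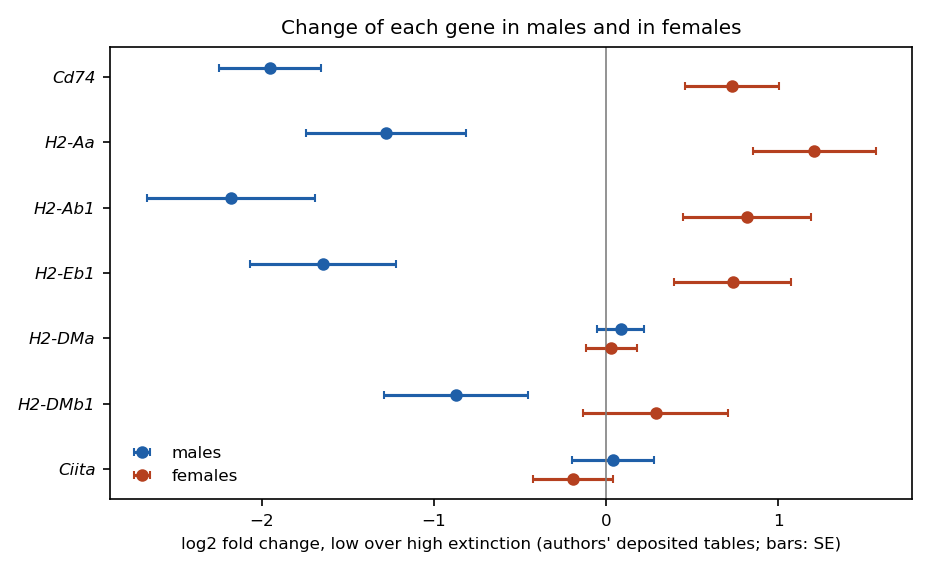
Log2 fold change, low over high extinction, of the 7 genes in the authors' deposited tables, with bars of 1 SE, for males and for females. Cd74, H2-Aa, H2-Ab1 and H2-Eb1 lie between -2.18 and -1.28 in males and between 0.73 and 1.21 in females, while H2-DMa and Ciita lie near 0 in both.

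Read as a group, 4 of the 7 genes had all low-extinction males below all high-extinction males, where 7.28% of all genes at a mean of at least 1 TPM in males did so. In males Cd74, H2-Ab1 and H2-Eb1, 3 of the 7, were called in the authors' deposited table at a DESeq2 threshold of 0.05. It called 0.504% of all its adjusted genes, and 0.389% as lower at low extinction. As these males chose the genes, nothing is read from either count. In females, limma called 0 of the 6 genes tested, and it called 2 of 18668 genes in all (0.0107%). At an unadjusted limma p under 0.05 stood 3 of the 6, Cd74, H2-Aa and H2-Eb1, against 8.83% of all genes tested. That count fell to 1 of 6 after scaling by the median of ratios or without ribosomal RNA-derived transcripts, and it lay between 0 and 3 when single libraries were left out. The authors' deposited table called 0 of the 5 class II genes with an adjusted p in females, and it called 0.857% of all genes there. At an unadjusted DESeq2 p under 0.05 the authors' deposited table had 4 of 7 in females, against 5.29% of all 34509 genes with a p. Those genes include many below a mean of 1 TPM, so the share among genes at like levels may be higher. In the authors' deposited tables the median log2 difference of the 7 genes was -1.28 in males and 0.73 in females, and that of all genes at a mean of at least 1 TPM was -0.01 in both.

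The male and female differences of Cd74 and the 3 class II chains thus had opposite signs. The male minus the female log2 difference in the authors' deposited tables was -2.69 for Cd74 (combined SE 0.40), -2.49 for H2-Aa (0.59), -2.996 for H2-Ab1 (0.61) and -2.38 for H2-Eb1 (0.54). It was -1.16 for H2-DMb1 (0.59), 0.05 for H2-DMa (0.20) and 0.23 for Ciita (0.33) in the same deposited tables of the authors. This contrast contains the male comparison that chose the genes and was not tested. The tables of the sexes were made separately, so levels can be set side by side only. Low-extinction males held the lowest mean of the 4 groups for Cd74, H2-Aa, H2-Ab1, H2-Eb1 and H2-DMb1. The order of the other groups varied. High-extinction males had the highest mean of Cd74 and H2-Ab1 and low-extinction females that of H2-Aa and H2-Eb1. For Cd74 these neighbours lay within their spread, at 7.77 ± 1.81 TPM in high-extinction males and 7.45 ± 2.53 TPM in low-extinction females (SD, n = 3 each).

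**Figure D3:**
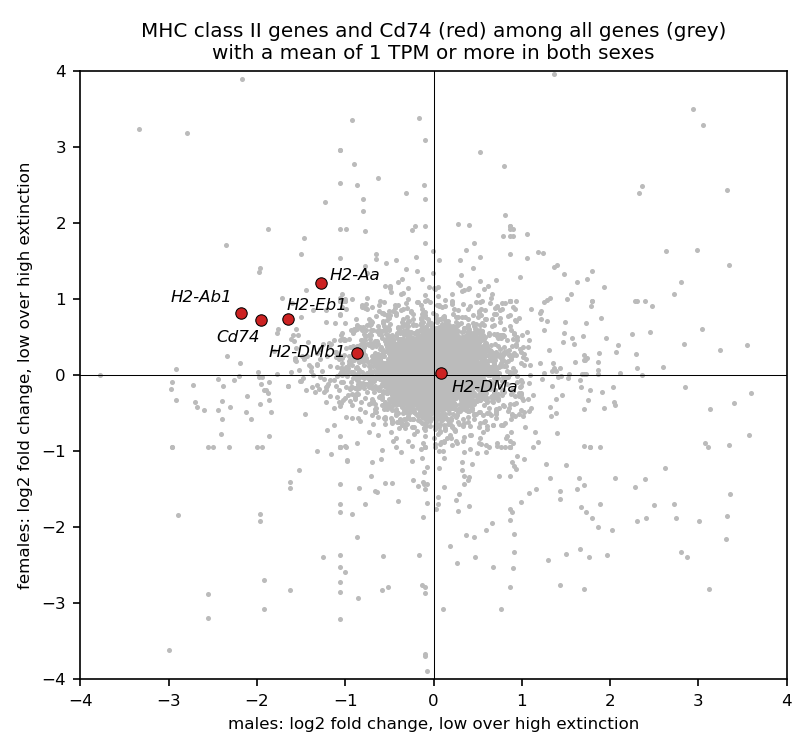
Log2 fold change, low over high extinction, in males (x axis) and females (y axis) for 17626 genes at a mean of at least 1 TPM in both sexes, from the authors' deposited tables. Grey points are all genes, 1 of which falls outside the axes, and red points are the 6 class II genes that reach that level. H2-Ab1, Cd74, H2-Eb1 and H2-Aa lie in the upper left and H2-DMa lies at the centre.

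Within groups the genes also varied from mouse to mouse. After the mean of each group was subtracted from log2(TPM + 1), the 6 pairs among Cd74, H2-Aa, H2-Ab1 and H2-Eb1 had Pearson correlations from 0.10 to 0.80 over the 12 libraries. The highest was that of the I-A chains H2-Aa and H2-Ab1, with r = 0.80 (two-sided exact permutation p = 0.00926 over 1296 permutations within groups, 0.194 adjusted over 21 pairs). Spearman's rho of this pair was 0.61 (exact permutation p = 0.0579, 0.664 adjusted over 21 pairs), and r was 0.78 without the 2 libraries farthest from the median of H2-Aa. H2-Ab1 and H2-Eb1 had the lowest of the 6, and without replicate 1 of the low-extinction males the lowest value among the 6 pairs was -0.25. Of all 21 pairs, 11 were above 0, 1 had an unadjusted p under 0.05 and 0 passed the adjustment. The libraries share their dissection and their scaling to a common total.

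**Figure D4:**
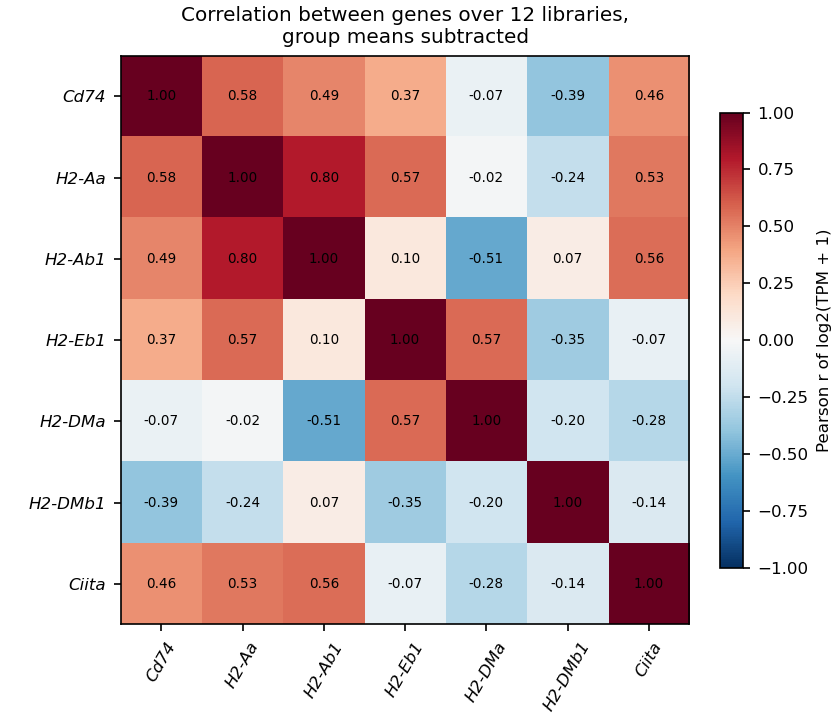
Pearson correlation of log2(TPM + 1) between the 7 genes over 12 libraries after the group means were subtracted, from -1 (blue) to 1 (red). The block of Cd74, H2-Aa, H2-Ab1 and H2-Eb1 runs from 0.10 to 0.80, and H2-DMa has -0.51 with H2-Ab1 and 0.57 with H2-Eb1.

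Other parts of the class II machinery were read from gene lists, limited to genes averaging 1 TPM or more, with the calls of the authors' deposited tables. Of all 17913 genes at that level in males, 67 were called lower and 23 higher at low extinction. In females 45 of 18275 were called lower and 87 higher, so 0 calls in a short list is near the share of all genes. The 7 proteins of the X and Y boxes, Rfx5, Rfxank, Rfxap, Nfya, Nfyb, Nfyc and Creb1, gave 0 calls in either sex, with median log2 differences of -0.01 in males and -0.04 in females. Nfya, a subunit of the Y box factor, had the log2 difference farthest from 0 among them in males in the authors' deposited table (-0.24, SE 0.11, DESeq2 adjusted p = 0.547). It stood at 13.6 ± 1.22 TPM in low-extinction males and 16.02 ± 0.442 TPM in high-extinction males (SD, n = 3 each). The 8 genes of class II processing and turnover, the proteases Ctss, Ctsl, Ctsb, Ctsd and Lgmn, the reductase Ifi30 and the ubiquitin ligases March1 and March8, also gave 0 calls in the authors' deposited tables. Their medians were -0.15 in males, where 8 of 8 were below 0, and -0.05 in females. Ctss, the protease known for trimming Cd74, stood at 59.6 to 85.0 TPM over the libraries. Of the interferon gamma pathway, the main inducer of Ciita, 9 of 10 genes were at a mean of 1 TPM, with 0 calls in either sex and medians of -0.07 in males and -0.07 in females in the authors' deposited tables. Irf1, a transcription factor of that pathway, had the male log2 difference farthest from 0 among them. It stood at 7.61 ± 0.701 TPM in low-extinction males and 10.1 ± 0.720 TPM in high-extinction males (SD, n = 3 each). Its log2 difference in the authors' deposited table was -0.39 (SE 0.14, DESeq2 adjusted p = 0.276).

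MHC class I, which shows peptides from inside the cell, had no calls. Of its list 9 of 10 genes were at a mean of 1 TPM, and the authors' deposited tables called 0 of them in either sex, with medians of -0.10 in males and 0.04 in females. H2-K1, a class I heavy chain, stood at 19.8 ± 2.96 TPM in low-extinction males and 24.9 ± 3.14 TPM in high-extinction males (SD, n = 3 each). The other class II molecules H2-DMb2, H2-Oa, H2-Ob, H2-Eb2 and H2-Ea-ps did not reach a mean of 1 TPM in either sex, and H2-Eb2 and H2-Ea-ps were listed at 0 in every library. The genes beside the class II genes on chromosome 17 were read as well. Within 100 kb of H2-DMa, H2-DMb1, H2-Ab1, H2-Aa and H2-Eb1, 12 other genes reached a mean of 1 TPM in males and 13 in females, and the authors' deposited tables called 0 of them. Their log2 differences ran from -0.17 to 0.31 in males with a median of 0.01, and from -0.28 to 0.50 in females with a median of 0.03. H2-Ob, which shares the paired X and Y boxes, stayed between 0.136 and 0.746 TPM.

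Markers of the cells that could carry class II were then set beside Cd74. Microglia, with 12 of 12 markers at a mean of 1 TPM, summed to 233 to 258 TPM in low-extinction males and 204 to 245 TPM in high-extinction males. In females the microglial sum was 245 to 273 TPM at low extinction and 233 to 247 TPM at high extinction. The authors' deposited tables called 0 of 12 microglial markers in either sex, with medians of 0.13 in males and -0.08 in females. On the TPM scale the microglial sum of each low-extinction female but the first exceeded those of all high-extinction females, and the part of microglia in the class II values was not tested. Border-associated macrophages had 10 markers, of which 2 reached a mean of 1 TPM in males and 4 in females. Their sum was 11.6 to 18.1 TPM in low-extinction males and 9.53 to 13.99 TPM in high-extinction males. Stab1 was the largest contributor to that sum. It stood at 9.36 ± 2.26 TPM in low-extinction males and 6.03 ± 0.867 TPM in high-extinction males (SD, n = 3 each). Pf4, the other marker at a mean of 1 TPM in males, went the other way. It stood at 0.904 ± 0.608 TPM in low-extinction males and 1.59 ± 0.141 TPM in high-extinction males. The authors' deposited table gave male log2 differences of 0.13 (SE 0.14) for Stab1 and -0.81 (SE 0.69) for Pf4. In females the border macrophage sum was 15.1 to 20.6 TPM at low extinction and 11.5 to 13.5 TPM at high extinction, without overlap. Of all genes at a mean of at least 1 TPM in females, 14.3% had all low-extinction libraries above all high-extinction libraries. The female meningeal, dendritic and endothelial sums showed that separation too. The authors' deposited tables called 0 of the border macrophage markers, and Ms4a7, Folr2 and Clec12a were at 0 in at least 1 library. Mrc1, the mannose receptor of these macrophages, stood at 1.82 ± 0.770 TPM in low-extinction females and 1.15 ± 0.174 TPM in high-extinction females (SD, n = 3 each). The part of border-associated macrophages in the class II values was not tested.

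Several defining markers of lymphoid and dendritic cells were at or near 0. Of 10 dendritic markers 3 were at a mean of 1 TPM, Flt3, Zbtb46 and Batf3, and the defining markers Xcr1, Cd209a and Ccr7 were at 0 in at least 1 library, with Xcr1 at 0.0936 TPM or less. The dendritic sum was 12.7 to 14.6 TPM in low-extinction males and 13.2 to 15.95 TPM in high-extinction males. It was 16.5 to 17.7 TPM in low-extinction females and 15.1 to 15.8 TPM in high-extinction females, without overlap in females. Of 9 B cell markers Ms4a1 was at 0 in every library. Ighm, the heavy chain of IgM, was the largest contributor to the B cell sum, at 14.4 to 31.6 TPM. The B cell sum was 17.9 to 23.6 TPM in low-extinction males and 16.6 to 28.7 TPM in high-extinction males, and 21.3 to 59.4 TPM in low-extinction females and 18.8 to 24.5 TPM in high-extinction females. T cell markers, 2 of 8 at a mean of 1 TPM, summed to 3.89 to 5.13 TPM in low-extinction males and 1.98 to 6.92 TPM in high-extinction males. In females the T cell sum was 4.75 to 5.79 TPM at low extinction and 2.46 to 5.75 TPM at high extinction, and Cd3d, Cd3e and Cd3g stayed at 0.225 TPM or less. The authors' deposited tables called 0 genes of these 3 lists in either sex, and their part in the class II values was not tested.

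The tissues that line the hippocampus and its ventricle were read in the same way. Meningeal fibroblast markers summed to 54.2 to 112 TPM in low-extinction males and 122 to 141 TPM in high-extinction males. In females they summed to 127 to 153 TPM at low extinction and 98.8 to 108 TPM at high extinction. Neither sex overlapped, and the directions were those of Cd74. On the TPM scale in females an upward separation was common. Of 18275 genes, 2640 had all low-extinction females above all high-extinction females, and 360 had them all below. In females the authors' deposited table called 6 of 11 meningeal markers at a mean of 1 TPM, all higher at low extinction, with a median of 0.60. Of all 18275 genes at that level, it called 87 higher. Limma on log2(TPM + 1) called 0 of the 11. For Igf2, a growth factor and 1 of the 6, the libraries did not show the direction of the deposited log2 difference (0.48, SE 0.09), with 24.01, 23.8 and 20.99 TPM in low-extinction females and 26.4, 19.2 and 28.2 TPM in high-extinction females. Among the 6 the authors' deposited table gave Col3a1, a collagen chain, a 2.38-fold higher level (SE 0.20 on log2, DESeq2 adjusted p = 2.05e-06). The authors' deposited table gave Aldh1a2, which makes retinoic acid, a 2.02-fold higher level (SE 0.20 on log2, DESeq2 adjusted p = 0.000188). In males 10 of 10 such markers were below 0 in the authors' deposited table, with a median of -0.69 and 0 calls. Col3a1, which missed the mean of 1 TPM in males, was called lower at low extinction there (log2 -1.65, SE 0.39, DESeq2 adjusted p = 0.0122). The part of meningeal tissue in the class II values was not tested.

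Ependymal markers, genes of the ciliated cells on the ventricle wall, summed to 20.9 to 46.7 TPM in low-extinction males and 60.1 to 73.2 TPM in high-extinction males, without overlap. In females the ependymal sum was 45.2 to 78.5 TPM at low extinction and 29.8 to 65.7 TPM at high extinction, with overlap. The authors' deposited table called 4 of 9 ependymal markers lower at low extinction in males, with a median of -1.07, and 0 of 10 in females, with a median of 0.27. Of all genes at a mean of at least 1 TPM, 67 of 17913 were called lower in males. In females 45 of 18275 were called lower and 87 higher. Choroid plexus markers summed to 62.1 to 1007 TPM in low-extinction males and 349 to 3582 TPM in high-extinction males. In females the choroid plexus sum was 113 to 1125 TPM at low extinction and 28.6 to 1314 TPM at high extinction. All 15 choroid plexus markers were below 0 in both of the authors' deposited tables, with medians of -2.38 in males and -0.20 in females and 0 calls. The female sign, opposite to that of Cd74, is uncertain. Folr1, the marker farthest from 0 in females, had a log2 difference of -0.78 with an SE of 1.27. The female library with the most Cd74, replicate 3 at low extinction with 10.3 TPM, had a choroid plexus sum of 113 TPM, the lowest of its group. The same library had the highest meningeal (153 TPM), ependymal (78.5 TPM) and border macrophage (20.6 TPM) sums of its group. It also had the highest microglial (273 TPM), endothelial (225 TPM), hippocampal neuron (5966 TPM), blood (598 TPM) and T cell (5.79 TPM) sums of its group. Its B cell sum (22.6 TPM) was in the middle and its dendritic sum (16.5 TPM) was the lowest. This library had the smallest ribosomal RNA-derived share of TPM (7.35%), whose part in these sums was not tested. In males the low-extinction library with the most Cd74, H2-Aa, H2-Ab1 and H2-Eb1 was replicate 1. That library also had the highest meningeal, ependymal, choroid plexus, border macrophage and endothelial sums of its group. Its hippocampal neuron, dendritic and B cell sums were the lowest of its group. The part of ependyma and choroid plexus in the class II values was not tested.

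**Figure D5:**
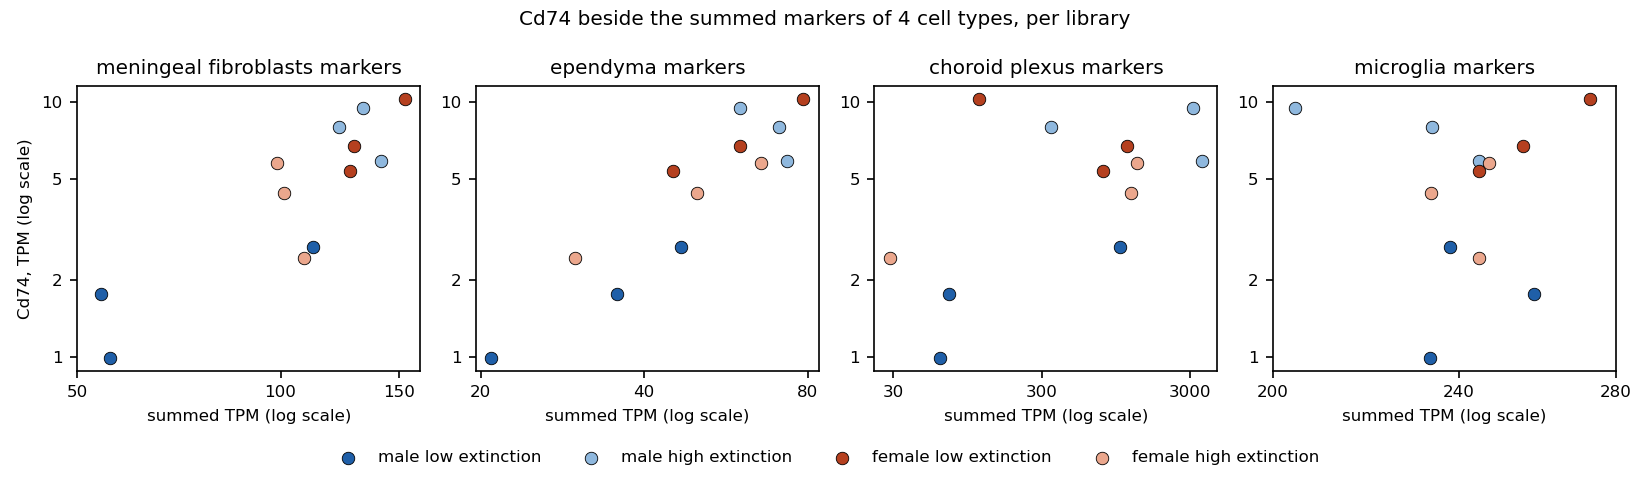
Cd74 in TPM (y axis, log scale) against the summed TPM of markers of 4 cell types (x axes, log scales), 1 point per library, coloured by group. Replicates 2 and 3 of the low-extinction males have the least Cd74 and the smallest meningeal sums of the 12 libraries, and microglial sums span 204 to 273 TPM.

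Beyond the group means, the correlation of Cd74 with each of 11 marker sums was taken over the 12 libraries on the log scale after the group means were subtracted. With ependyma it was r = 0.85 (two-sided exact permutation p = 0.0139, 0.0764 adjusted over 11 lists). The same pair had a rho of 0.81 (exact permutation p = 0.0193, 0.106 adjusted), and r was 0.73 without the 2 libraries farthest from the median of the ependymal sum. With the dendritic list, whose sum rests mostly on Flt3 and Zbtb46, it was r = -0.74 (exact permutation p = 0.000772, 0.00849 adjusted), rho = -0.71 (exact permutation p = 0.00386, 0.0424 adjusted) and r = -0.69 without the 2 farthest libraries. With microglia it was r = 0.01 (exact permutation p = 0.967) and rho = 0.10 (exact permutation p = 0.765). With meningeal fibroblasts it was r = 0.43 (exact permutation p = 0.336) and rho = 0.43 (exact permutation p = 0.233). With border-associated macrophages it was r = 0.50 (exact permutation p = 0.144) and rho = 0.53 (exact permutation p = 0.136), and r was 0.23 without the 2 farthest libraries. With T cells it was r = -0.58 (exact permutation p = 0.0679) and rho = -0.49 (exact permutation p = 0.115). With B cells it was r = -0.39 (exact permutation p = 0.302) and rho = -0.50 (exact permutation p = 0.141). With the choroid plexus it was r = 0.40 (exact permutation p = 0.295) and rho = 0.43 (exact permutation p = 0.253). Of the 11 lists, only the dendritic list passed the adjustment over them. As several defining dendritic markers were at or near 0, that sum may not follow the amount of dendritic cells. Endothelial markers, hemoglobin and other blood genes, and hippocampal neuron markers had r between -0.14 and 0.25. Subtracting sex means instead leaves in the extinction difference, whose male side chose Cd74. The r with Cd74 was then 0.15 for the dendritic list, 0.91 for ependyma and 0.83 for meningeal fibroblasts. For the other lists it lay between -0.25 and 0.60. Endothelial markers summed to 182 to 196 TPM in low-extinction males and 176 to 197 TPM in high-extinction males. They summed to 219 to 225 TPM in low-extinction females and 186 to 209 TPM in high-extinction females, without overlap in females. Blood markers summed to 259 to 993 TPM in low-extinction males and 385 to 592 TPM in high-extinction males, and 311 to 598 TPM in low-extinction females and 384 to 638 TPM in high-extinction females.

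Genes outside the class II system whose levels within groups most resembled the mean of Cd74, H2-Aa, H2-Ab1 and H2-Eb1 were ranked among 18040 genes at a mean of 1 TPM in both sexes. The closest were 2410004B18Rik (r = 0.94), 1700056N10Rik (0.93), Tdp2 (0.90), Ly6h (0.90), Serpind1 (0.89), Zbtb9 (0.88), Lsg1 (0.88), Rbpsuh-rs3 (0.88), Trp73 (0.88) and Stt3a (0.87), over 12 libraries. These values are the highest of many and are given as a description. None of the 10 belongs to a marker list used here. Tdp2, a DNA repair phosphodiesterase, varied little between groups, at 19.7 ± 3.60 TPM in low-extinction males and 18.9 ± 1.82 TPM in high-extinction males, and 23.5 ± 0.862 TPM in low-extinction females and 21.02 ± 2.13 TPM in high-extinction females (SD, n = 3 each). Trp73, a p53 relative needed for the cilia of ependymal cells, stood at 1.47 ± 0.256 TPM in low-extinction males and 2.04 ± 0.159 TPM in high-extinction males, and 1.77 ± 0.0982 TPM in low-extinction females and 1.47 ± 0.0744 TPM in high-extinction females (SD, n = 3 each). The authors' deposited tables gave Trp73 log2 differences of -0.36 (SE 0.20) in males and 0.14 (SE 0.18) in females, neither called. With sex means in place of group means subtracted, which leaves the extinction difference in, r was 0.96 for Trp73 and 0.02 for 2410004B18Rik.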

How the data were processed

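Total RNA of single hippocampi was enriched for polyadenylated RNA before library preparation, per the labels' protocols. Per the submitters' processing notes, the tools were DESeq2, StringTie 1.3.3b, HTSeq, Bowtie2 and TopHat2, and the builds mm10 and GRCm38.p5 are listed, with no role for each. The authors deposited a TPM table for each sex, with 52636 genes. They also deposited a DESeq2 table for each sex, which per the file headers holds the mean of normalized counts (a signal averaged over 6 libraries), log2 fold changes with standard errors, a test score, p-values and adjusted p-values. The deposited log2 fold change names no direction. Across genes it correlated at -0.58 in males (17913 genes) and -0.46 in females (18275 genes) with the TPM difference, low minus high extinction, and signs were opposite in 101 of 101 called male genes and 133 of 134 called female genes. It was therefore multiplied by -1. A gene with a p-value but no adjusted p was left without one.

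No count model was possible, as only mean counts were analysed here, and each library's depth is unknown. The female libraries were compared by limma 3.58.1 (R 4.3.3) on log2(TPM + 1), with a mean-variance trend, in genes at a mean of at least 1 TPM and with Benjamini-Hochberg adjustment over all 18668 of them at 0.05. The pseudocount of 1 understates changes of low genes. Of the 7 genes, 6 passed that filter in each sex. On simulated data of the female comparison, with 18668 genes and changes planted together in 50 genes per size, limma called 46% of log2 changes of 0.5, 82% of 1, 90% of 2 and 96% of 3, with 5 false calls. The planted genes were drawn from all tested genes, each with its own spread, and many planted changes ease the adjustment. These rates are therefore not those of the class II genes, whose limma SE in females was 0.24 to 0.30 for Cd74, H2-Aa, H2-Ab1 and H2-Eb1. Columns were matched to mice by name, and replicate numbers come from record order alone. Correlations subtracted group means from log2 values, and their exact permutations within groups were added after the data were seen. Gene positions are from GENCODE M21, in which 7 of 7 identifiers were found with another version number. Promoter windows are from RefSeq on GRCm38.p6. The genes and lists were chosen with earlier results of these data known. The rule for named genes took the 7 genes, up to 4 list members by greatest fold in the authors' deposited table at a mean of 1 TPM, and the 10 genes with the most similar pattern. Any other gene was picked with its values known. Alternatives were other pseudocounts, scalings, filters, variance models, a joint fit, thresholds and leaving out each library. Other steps used scipy 1.17.1, matplotlib 3.10.9 and statsmodels 0.14.6 under Python 3.11.15.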

Additional observations from a re-analysis of the deposited data

How the results depend on the processing

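Limma called 2 genes in females, and 0 of the 6 class II genes tested, and the 0 held under all 14 alternatives run. With a filter of 0.1 TPM or no filter, Ciita was tested too, and 0 of 7 were called. The number of genes called was 1 with no filter on low values, 4 with robust variances, 0 in a joint fit of 12 libraries (1547 genes at an unadjusted p under 0.05), and 4 to 10 when single libraries were left out. The differences of Cd74, H2-Aa, H2-Ab1, H2-Eb1 and H2-DMb1 in females stayed above 0 under all 14, from 0.44 to 0.93 for Cd74, 0.67 to 1.19 for H2-Aa, 0.39 to 0.88 for H2-Ab1, 0.37 to 0.85 for H2-Eb1 and 0.04 to 0.34 for H2-DMb1 without single libraries. H2-DMa, near 0, turned sign to -0.057 with median-of-ratios scaling, to -0.016 without ribosomal RNA-derived genes and to between -0.062 and 0.15 without single libraries, and the cause was not tested. At a threshold of 0.1 in the authors' deposited table of females 1 class II gene, H2-Aa, was called, and adjusted over all 34509 genes with a p its DESeq2 adjusted p was 0.153. In males the same 5 genes stayed below 0 under every alternative, and a pseudocount of 0.1 gave -2.11 for Cd74, -1.37 for H2-Aa, -2.47 for H2-Ab1, -2.19 for H2-Eb1 and -0.70 for H2-DMb1, against -1.66, -0.83, -1.52, -1.31 and -0.41 with 1. The number of the 6 pairs with a correlation above 0 was 5 to 6 without single libraries. No paired analysis was possible because the numbers only count the mice of a group and link no mice across groups.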

Other observations

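Of 17626 genes at a mean of at least 1 TPM in both sexes, 211 had a male log2 difference below -1 and 565 a female one above 0.5 in the authors' deposited tables. Both held for 49 genes, and Cd74, H2-Aa, H2-Ab1 and H2-Eb1 were 4 of them. These limits were set after the values were seen, and the male side is what chose the 4 genes. The marker lists supplied 2 others, Aldh1a2 and Dynlrb2. Dynlrb2, a dynein light chain of cilia, stood at 3.48, 0.562 and 1.27 TPM in low-extinction males, against 6.53, 7.16 and 4.84 TPM in high-extinction males, and at 4.40, 6.56 and 7.24 TPM in low-extinction females, against 2.04, 4.89 and 4.39 TPM in high-extinction females. Also in the set were Bmp7, Fmod, Slc13a4 and Anxa1, named after their values were seen.

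Among markers, Igkc, the kappa light chain of antibodies, stood at 26.3 TPM in the second low-extinction female library, and no other library exceeded 2.07 TPM. Within its group that library had the highest H2-Ab1 (4.20 TPM), the lowest H2-Eb1 (2.99 TPM) and the middle values of Cd74 (6.70 TPM) and H2-Aa (4.89 TPM). The part of antibody-producing cells in the class II values was not tested. Cx3cr1, a receptor of microglia, stood at 23.4 TPM in the third low-extinction female library and between 3.15 and 4.89 TPM in the others. The authors' deposited table gave Cx3cr1 a female log2 difference of 0.02 (SE 0.09), so its TPM in that library and its counts do not show the same difference.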
